A study of Homo sapiens with 17 samples.

Results

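A group of 30 genes that make sterols and fatty acids, or that regulate and carry sterols, was followed in BEAS-2B cells exposed to acetaldehyde. BEAS-2B, given in the labels as wild type, is an established line made by immortalising human bronchial epithelium, and acetaldehyde is a reactive aldehyde formed from ethanol and present in tobacco smoke. The genes were taken by symbol and not by a cutoff on measured values, but they were chosen with earlier results of these data known. They were 7 enzymes of the mevalonate pathway, 3 of the squalene and lanosterol steps and 8 that turn lanosterol into cholesterol. The rest were 5 genes of sterol regulation and transport and 7 of fatty acid synthesis, elongation and desaturation. All 30 were found among the 16884 protein-coding genes of the table, and all 30 were among the 12564 genes with enough counts to be tested. Poly-A RNA was sequenced in 17 libraries: 6 controls without acetaldehyde, 6 libraries at 10 mM and 5 at 16 mM, each after 24 h. All groups are the same line in the same medium and differ in the labels only in the dose.

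Cells make cholesterol from acetyl-CoA through mevalonate, farnesyl diphosphate, squalene and lanosterol, and fatty acids from the same acetyl-CoA. Transcription of most of these enzymes is driven by the sterol regulatory element-binding proteins, encoded by SREBF1 and SREBF2, which SCAP escorts out of the endoplasmic reticulum when sterols are low and which INSIG1 holds back when sterols are plentiful. INSIG1 is itself a target of these factors, so its transcript level is widely read as a gauge of the pathway.

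Libraries within a group were not evenly spread. Total estimated counts were 15952673 to 17245285 in the 16 libraries other than 10 mM library 1, which had 18809242, and the lowest count of any member in any library was 203. In 10 mM library 1 the scaling factor of edgeR (TMM) was 0.559, against at least 0.967 in the others, so its results are given with and without it. Pairs of libraries from the same close set (control 2 and 3, control 4 to 6, 10 mM 2 to 4, 10 mM 5 and 6, 16 mM 1 to 3, 16 mM 4 and 5) had a mean chi-square per gene of 1.74 to 4.28 over 12 pairs, against 11.7 to 56.5 over 23 pairs from different sets of the same group and 549 to 653 over the 5 pairs with 10 mM library 1. The labels name no batch and do not say that libraries came from separate cultures, so each p-value speaks only of spread among libraries, which may be technical. Sums over the close sets are therefore given beside the main test.

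The line was checked against markers. Of 11 epithelial markers, 4 averaged at least 1 FPKM (fragments scaled to transcript length and library depth) in each group: KRT7, KRT8, KRT17 and KRT18. EPCAM, CDH1, KRT5 and KRT19 did not exceed 0.12 FPKM in any library. KRT17, a basal keratin, averaged 180.4 FPKM at 16 mM and 91.3 FPKM in 10 mM libraries 2 to 6, against 48.4 FPKM in control. Of the 8 mesenchymal markers 6 averaged at least 1 FPKM in control, among them VIM at 773 FPKM, FN1 at 503 FPKM and COL1A1 at 3.62 FPKM, while COL1A2 and COL3A1 averaged 0.005 FPKM. The summed level of the 8 mesenchymal markers was 620 to 837 FPKM at 16 mM and 759 to 973 FPKM in 10 mM libraries 2 to 6, against 988 to 1655 FPKM in control, and its part in the results below was not tested. The summed level of 5 leukocyte markers was 11.4 to 14.5 FPKM at 16 mM and 9.14 to 11.0 FPKM in 10 mM libraries 2 to 6, against 3.14 to 4.90 FPKM in control. Most of this level was that of 1 gene, CD68. It averaged 12.1 FPKM at 16 mM and 8.78 FPKM in 10 mM libraries 2 to 6, against 3.32 FPKM in control. The defining markers PTPRC and CD3E were at or near 0. Each marker of adipocytes and hepatocytes, of endothelium and of alveolar type II cells averaged under 1 FPKM in every group. In bulk RNA, fewer cells of a type and less RNA per cell cannot be told apart.

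Most members were higher in control libraries 4 to 6 than in control libraries 1 to 3, none of which were exposed. Control libraries 1 to 3 are not 1 close set. Control library 1 stood apart from control libraries 2 and 3, with a mean chi-square per gene of 12.1 and 11.7. The 30 members together took 0.408% to 0.549% of all counts in control libraries 1 to 3 and 0.723% to 0.832% in control libraries 4 to 6. After scaling, 27 of the 30 were higher in each of control libraries 4 to 6 than in each of control libraries 1 to 3, where 29.5% of all genes tested were, and 0 were lower in this way, where 27.6% of all genes were. The ratio of mean FPKM, control 4 to 6 over control 1 to 3, had a median of 1.69 over the members and ran from 0.884 for SCAP to 5.14 for INSIG1. Counts of members called were therefore also taken against each control set, as were the changes of some members. Other changes, and the lists of further genes, stand against all 6 control libraries together.

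At 10 mM the members took 0.979% to 1.12% of counts in libraries 2 to 6 and 0.667% in library 1, and at 16 mM 0.614% to 0.766%. The highest shares of the series were thus those of 10 mM libraries 2 to 6, while the 16 mM shares lay above control 1 to 3 and overlapped control 4 to 6. FPKM summed over all genes came to 977403 in 10 mM library 1, against 506795 to 554077 in the others. Its members summed to 3322 FPKM, above every control (at most 2753). In TPM, FPKM rescaled to 1 total in every library, they summed to 3399, within control 1 to 3 (2685 to 3514). Its place among the libraries thus differs by measure, and its FPKM comparisons below hold for FPKM alone. The heat map of all members shows the same order: pale or blue in control 1 to 3, light red in control 4 to 6, strongest red in 10 mM libraries 2 to 6 and mixed at 16 mM.

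**Figure D1:**
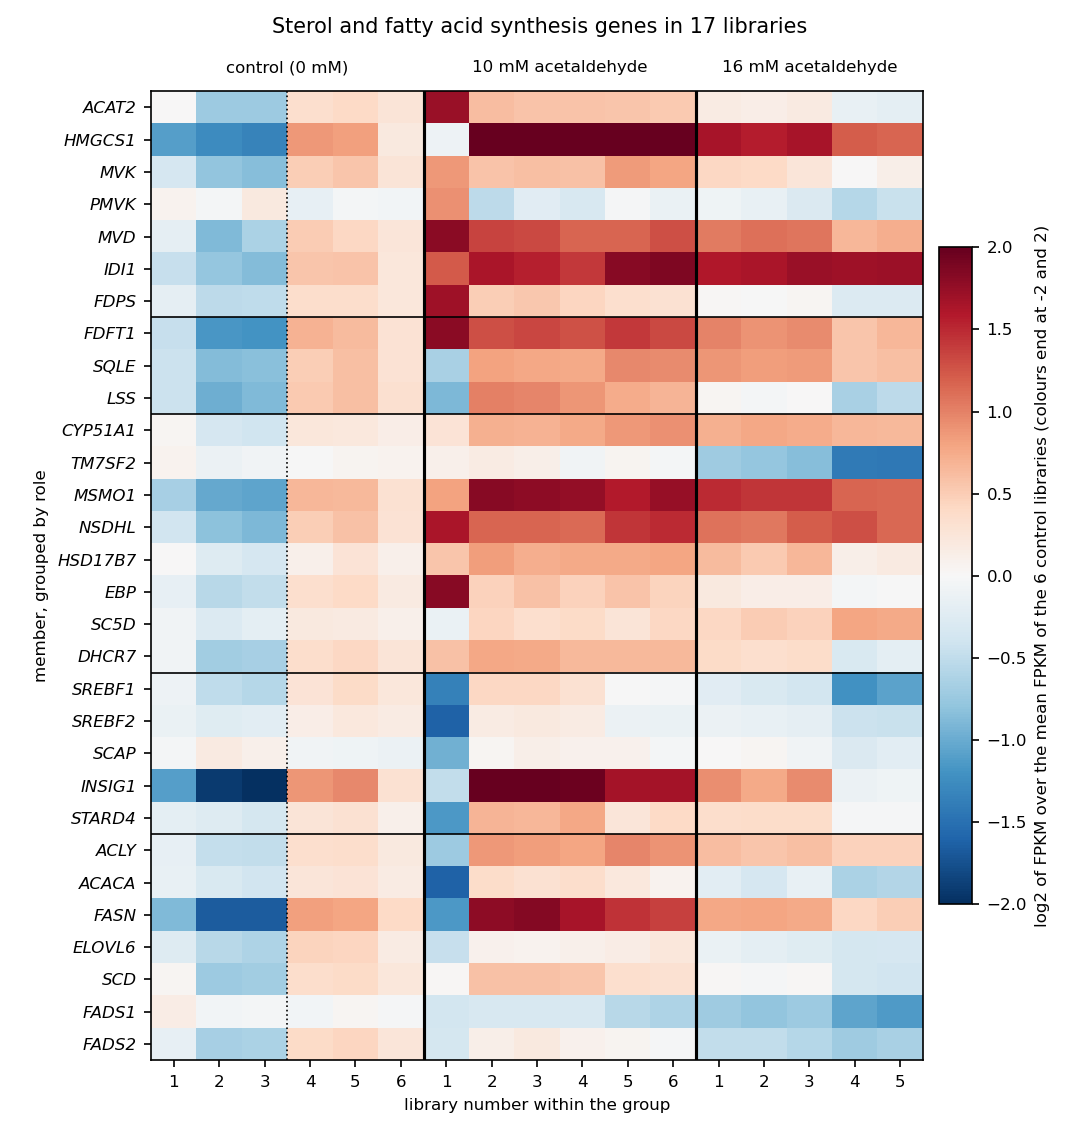
Each row is a member, grouped by role from top to bottom (mevalonate pathway, squalene and lanosterol steps, lanosterol to cholesterol, regulation and transport, fatty acids), and each column a library; colour gives the log2 of its FPKM over the mean FPKM of the 6 control libraries. Control libraries 1 to 3, left of the dotted line, are below control libraries 4 to 6 for most members, and 10 mM library 1 departs from the other 10 mM libraries in both directions.

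At 16 mM acetaldehyde members were called in both directions. Sterol enzymes were the larger part of those that rose, as they are of all members. Over all 17 libraries 10 members were higher at 16 mM than in control (background 17.3% of all genes tested), 4 were lower (background 18.1%) and 16 did not pass, by edgeR's quasi-likelihood test at an adjusted p under 0.05. The 10 that rose were HMGCS1, MVD and IDI1 of the mevalonate pathway, SQLE, CYP51A1, MSMO1, NSDHL, HSD17B7 and SC5D of the later sterol steps, and ACLY, which supplies acetyl-CoA. The 4 that fell were TM7SF2, SREBF1, FADS1 and FADS2. Of these, only TM7SF2 and FADS1 were also lower than each control set taken apart, with 10 mM library 1 left out. The median log2 change was 0.17 over the members and 0.00 over all genes. Without 10 mM library 1 the counts were 12 higher (background 33.7%) and 7 lower (background 32.2%). No difference of these counts from the shares of all genes was tested.

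At 10 mM the members moved in 1 direction in the main test: 16 were higher than in control (background 9.41%), 0 were lower (background 9.3%) and 14 did not pass. For the lower direction, 0 members had an unadjusted p under 0.05 and the DESeq2 Wald test called 0. Without 10 mM library 1 the counts were 19 higher (background 22.4%) and 1 lower (background 22.8%), which was FADS1. The median log2 change was 0.80 over the members and 0.05 over all genes, and 0.64 and 0.00 without 10 mM library 1.

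Between the doses, over all 17 libraries, 0 members were higher at 16 mM than at 10 mM (background 6.69%) and 4 were lower (background 7.46%), namely LSS, TM7SF2, FADS1 and FADS2. Of the members, 0 were higher at an unadjusted p under 0.05 and 0 by DESeq2. Without 10 mM library 1, 0 were higher (background 23.2%, 1 member at an unadjusted p under 0.05) and 15 were lower (background 20.9%). Every 16 mM library was below every one of 10 mM libraries 2 to 6 in FPKM for 21 members (background 13%), above for 0 (background 17.8%), and overlapping for 9.

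The control set decided many of these calls. Against control 1 to 3, with 10 mM library 1 left out, 21 members were higher at 16 mM (background 33.2%) and 3 lower (background 31.9%), and 26 were higher at 10 mM (background 24.2%) and 1 lower (background 24.3%). Against control 4 to 6 the counts at 16 mM were 11 higher (background 32.5%) and 13 lower (background 29.9%), and at 10 mM 16 higher (background 18.6%) and 3 lower (background 18.3%). At 16 mM, 11 members were higher than both control sets (background 25.5%): HMGCS1, MVD, IDI1, FDFT1, SQLE, CYP51A1, MSMO1, NSDHL, HSD17B7, SC5D and ACLY. TM7SF2 and FADS1 were lower than both (background 23.4%). A further 6, ACAT2, MVK, FDPS, LSS, EBP and ELOVL6, were higher than control 1 to 3 and lower than control 4 to 6 (background 0.826%). At 10 mM, 16 members were higher than both sets (background 12.5%) and FADS1 was lower than both (background 12.8%). The comparisons of both doses share the same control libraries.

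Summing close libraries, an alternative chosen after the data were seen, left 0 members called in any of the 3 comparisons by edgeR when 10 mM library 1 was kept. Over all 13190 genes tested, 27 were then higher at 16 mM than in control (background 0.205%) and 103 lower (background 0.781%), and 0 genes were called at 10 mM against control or between the doses (background 0% in each direction). At an unadjusted p under 0.05, 6 members were higher and 2 lower at 16 mM, 14 were higher and 0 lower at 10 mM, and 0 were higher and 1 lower between the doses. No share of all genes was taken at an unadjusted p, here or elsewhere in the text, so such counts have no background to stand against. With close libraries summed and 10 mM library 1 left out, 7 members were higher at 16 mM (background 20%) and 2 lower (background 19.3%). The 7 were HMGCS1, MVD, IDI1, CYP51A1, MSMO1, NSDHL and SC5D, and the 2 were TM7SF2 and FADS1. At 10 mM 8 were higher (background 3.77%) and 0 lower (background 5.25%), with 1 lower at an unadjusted p under 0.05; the 8 were HMGCS1, MVD, IDI1, CYP51A1, MSMO1, NSDHL, HSD17B7 and ACLY. Between the doses 0 members and 0 of all genes were higher (background 0%) or lower (background 0%), and 5 members were lower at an unadjusted p under 0.05.

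**Figure D2:**
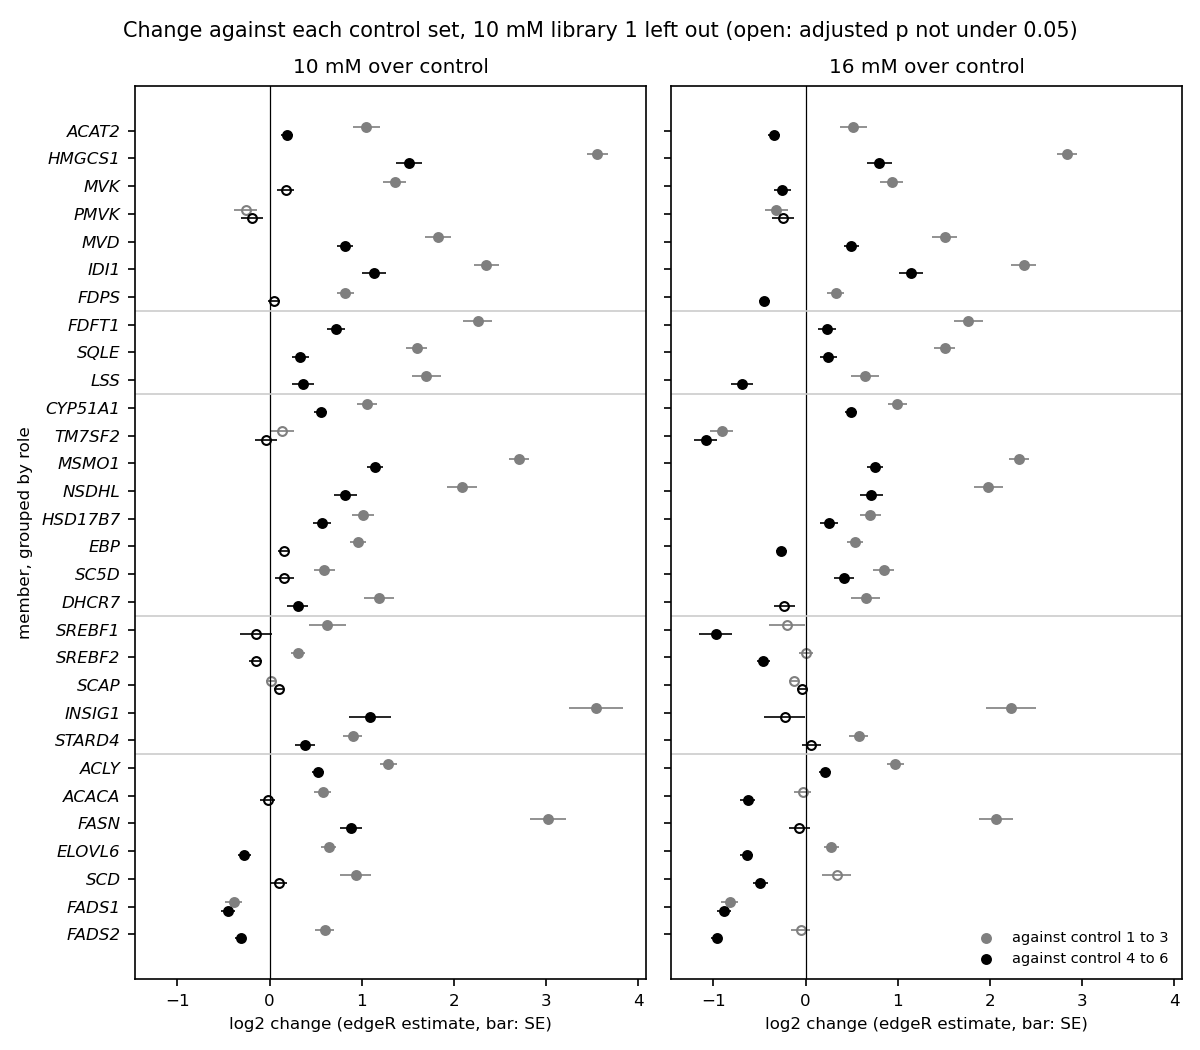
For each member, the edgeR log2 change of 10 mM (left panel) and of 16 mM (right panel) over control is drawn with its SE, in grey against control libraries 1 to 3 and in black against control libraries 4 to 6, with 10 mM library 1 left out; open circles did not pass an adjusted p of 0.05. Grey lies right of black for most members, and at 16 mM 11 members are filled and right of 0 in both colours.

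RefSeq promoters (GRCh38.p14) were matched by symbol for 26 of the 30 members; ACAT2, FDFT1, SQLE and FASN were not matched. In the 250 bases before a listed start, CCAAT, the letters of NF-Y sites, was found on either strand in 19 of 26 members (73.1%), against 37.0% of 27305 genes. GGGCGG, the letters of GC boxes, was found in 25 of 26 (96.2%), against 46.2% of genes. CACGTG was found in 3 of 26 (11.5%), against 7.73%, and the sterol element letters TCACNCCAC in 1 of 26, SREBF2, against 1.09%. Several starts are listed for some genes, and counted per listed start CCAAT stood in 65.7% of 35 member promoters, against 32.0% of 35116. These are matches of letters in a window, not sites. The 27305 genes were all those with a listed promoter, not matched to the members in expression, and no difference from them was tested.

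The 200 bases before the first listed start are shown for 3 members that passed at a dose against both control sets (HMGCS1, MVD and INSIG1), for SREBF2 as the member with the sterol element letters, and for TM7SF2 and FADS1 as the pair that fell at 16 mM against both control sets. They run 5′ to 3′ on the gene's strand in RefSeq, GRCh38.p14, and capitals mark CCAAT or its reverse complement ATTGG, TCACNCCAC and CACGTG. Their positions are chr5:43313413-43313612, minus strand, for HMGCS1; chr16:88663092-88663291, minus strand, for MVD; chr7:155297678-155297877, plus strand, for INSIG1. For the others they are chr22:41832905-41833104, plus strand, for SREBF2; chr11:65111672-65111871, plus strand, for TM7SF2; chr11:61817004-61817203, minus strand, for FADS1. HMGCS1 has 2 CCAAT matches in this window, MVD 3, INSIG1 1 beside 1 CACGTG, SREBF2 1 beside 1 TCACNCCAC, TM7SF2 1 and FADS1 0.
HMGCS1: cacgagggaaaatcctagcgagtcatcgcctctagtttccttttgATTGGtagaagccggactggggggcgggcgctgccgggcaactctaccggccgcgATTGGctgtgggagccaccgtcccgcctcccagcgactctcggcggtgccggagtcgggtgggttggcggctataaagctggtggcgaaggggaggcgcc
MVD: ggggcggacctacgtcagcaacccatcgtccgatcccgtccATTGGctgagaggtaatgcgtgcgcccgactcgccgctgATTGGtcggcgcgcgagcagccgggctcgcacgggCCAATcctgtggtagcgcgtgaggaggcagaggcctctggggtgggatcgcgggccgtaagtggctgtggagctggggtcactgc
INSIG1: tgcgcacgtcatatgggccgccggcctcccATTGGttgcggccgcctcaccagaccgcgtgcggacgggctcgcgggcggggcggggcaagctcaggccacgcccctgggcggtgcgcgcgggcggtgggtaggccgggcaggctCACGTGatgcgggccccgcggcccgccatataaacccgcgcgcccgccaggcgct
SREBF2: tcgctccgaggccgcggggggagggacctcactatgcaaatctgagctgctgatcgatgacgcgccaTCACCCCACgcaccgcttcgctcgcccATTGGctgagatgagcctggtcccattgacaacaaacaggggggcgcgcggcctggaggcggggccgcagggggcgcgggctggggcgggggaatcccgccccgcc
TM7SF2: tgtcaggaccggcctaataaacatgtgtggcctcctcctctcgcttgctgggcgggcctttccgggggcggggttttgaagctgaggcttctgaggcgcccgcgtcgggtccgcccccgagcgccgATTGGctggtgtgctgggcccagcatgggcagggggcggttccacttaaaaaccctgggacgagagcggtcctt
FADS1: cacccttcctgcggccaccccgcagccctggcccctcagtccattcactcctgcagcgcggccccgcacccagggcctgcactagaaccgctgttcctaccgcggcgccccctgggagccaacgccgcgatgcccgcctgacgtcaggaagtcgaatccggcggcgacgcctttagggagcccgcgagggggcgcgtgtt

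The highest log2 changes at 16 mM over all libraries were those of IDI1 and HMGCS1, both of the mevalonate pathway. HMGCS1, the cytosolic HMG-CoA synthase that commits acetoacetyl-CoA to the pathway (chromosome 5, 43287321 to 43313477), showed 15.1, 13.7 and 12.8 FPKM in the first 3 control libraries and 59.1, 57.2 and 37.1 FPKM in the other 3. HMGCS1 measured 30.3, 154, 154, 146, 144 and 153 FPKM in 10 mM libraries 1 to 6 and 101, 96.7, 102, 75.5 and 72.9 FPKM in 16 mM libraries 1 to 5. All 5 libraries at 16 mM and 10 mM libraries 2 to 6 were above all 6 controls, and 10 mM library 1 fell between the control sets. The log2 change at 16 mM was 1.47 ± 0.41 (adjusted p = 0.0104), and without 10 mM library 1 it was 2.84 ± 0.11 (adjusted p = 5.89e-10) against control 1 to 3 and 0.80 ± 0.14 (adjusted p = 0.000164) against control 4 to 6. At 10 mM it was 2.04 ± 0.41 (adjusted p = 0.00241) over all libraries and 2.20 ± 0.37 (adjusted p = 0.000168) without library 1. Between the doses the change was -0.72 ± 0.38 (adjusted p = 0.138) without library 1, which did not pass, although each 16 mM library was below each of 10 mM libraries 2 to 6.

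IDI1, the isomerase that makes the reactive isoprene unit dimethylallyl diphosphate (chromosome 10, 1039152 to 1056720), showed 30.8, 24.8 and 23.3 FPKM in the first 3 control libraries and 62.5, 63.0 and 49.6 FPKM in the other 3. IDI1 measured 98.9, 131, 124, 113, 149 and 155 FPKM in 10 mM libraries 1 to 6 and 128, 131, 139, 138 and 138 FPKM in 16 mM libraries 1 to 5. In FPKM both doses were above all controls and overlapped each other, and 16 mM over 10 mM was 0.01 ± 0.25 (adjusted p = 0.97) without 10 mM library 1. At 16 mM the log2 change was 1.62 ± 0.26 (adjusted p = 0.000134), and without 10 mM library 1 2.37 ± 0.14 (adjusted p = 1.56e-08) against control 1 to 3 and 1.15 ± 0.13 (adjusted p = 3.53e-06) against control 4 to 6. MVD, the decarboxylase that makes isopentenyl diphosphate (chromosome 16, 88651935 to 88663161), showed 29.2, 17.9 and 21.4 FPKM in the first 3 control libraries and 46.8, 44.2 and 39.0 FPKM in the other 3. MVD measured 116, 84.6, 82.9, 74.3, 74.4 and 80.7 FPKM in 10 mM libraries 1 to 6 and 67.9, 71.4, 69.4, 52.2 and 54.7 FPKM in 16 mM libraries 1 to 5. Again no exposed library overlapped a control in FPKM. The log2 change was 0.91 ± 0.31 (adjusted p = 0.03) at 16 mM and 1.60 ± 0.30 (adjusted p = 0.00156) at 10 mM. Against control 4 to 6 alone, without 10 mM library 1, MVD still rose at 16 mM, by 0.50 ± 0.09 (adjusted p = 0.000179).

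The other mevalonate enzymes did not pass at 16 mM over all libraries. PMVK, phosphomevalonate kinase, showed 27.9, 25.9 and 30.4 FPKM in the first 3 control libraries and 23.8, 25.9 and 25.4 FPKM in the other 3. PMVK measured 50.2, 18.5, 22.6, 21.2, 26.2 and 24.2 FPKM in 10 mM libraries 1 to 6 and 25.1, 23.8, 21.8, 17.9 and 19.6 FPKM in 16 mM libraries 1 to 5. It is the mevalonate enzyme whose control level was not higher in control 4 to 6, and its exposed and control libraries overlapped. Its log2 change was -0.29 ± 0.35 (adjusted p = 0.56) at 16 mM over all libraries and -0.28 ± 0.10 (adjusted p = 0.0185) without 10 mM library 1. ACAT2, the cytosolic acetoacetyl-CoA thiolase, spanned 86.2 to 143 FPKM in the first 3 control libraries and 171 to 188 FPKM in the other 3. ACAT2 measured 206 to 219.9 FPKM in 10 mM libraries 2 to 6, 471 FPKM in 10 mM library 1 and 125 to 162 FPKM at 16 mM. At 10 mM it was higher by 1.17 ± 0.37 (adjusted p = 0.0354), while at 16 mM it changed by 0.52 ± 0.14 (adjusted p = 0.00598) against control 1 to 3 and -0.34 ± 0.06 (adjusted p = 0.000299) against control 4 to 6, opposite directions. MVK, mevalonate kinase, spanned 6.88 to 9.79 FPKM in the first 3 control libraries and 14.8 to 18.1 FPKM in the other 3. MVK measured 18.3 to 22.3 FPKM in 10 mM libraries 2 to 6, 22.6 FPKM in 10 mM library 1 and 12.4 to 16.5 FPKM at 16 mM. MVK rose at 10 mM by 0.88 ± 0.27 (adjusted p = 0.0336). FDPS, farnesyl diphosphate synthase and the most abundant enzyme of the pathway in FPKM, spanned 161 to 205 FPKM in the first 3 control libraries and 269.6 to 296 FPKM in the other 3. FDPS measured 284 to 337 FPKM in 10 mM libraries 2 to 6, 752 FPKM in 10 mM library 1 and 190.3 to 237 FPKM at 16 mM. Its change at 10 mM, 1.06 ± 0.37 (adjusted p = 0.0548), did not pass, and at 16 mM without library 1 it was 0.33 ± 0.09 (adjusted p = 0.00503) against control 1 to 3 and -0.45 ± 0.06 (adjusted p = 2.84e-05) against control 4 to 6.

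At the squalene and lanosterol steps 1 of 3 members rose at 16 mM (background 17.3%) and 1 of 3 at 10 mM (background 9.41%) over all libraries. Without 10 mM library 1, 2 of 3 rose at 16 mM (background 33.7%) and 3 of 3 at 10 mM (background 22.4%). FDFT1, squalene synthase on chromosome 8, showed 39.7, 24.4 and 23.8 FPKM in the first 3 control libraries and 88.0, 85.1 and 66.7 FPKM in the other 3. FDFT1 measured 191, 134, 137, 132, 145 and 136 FPKM in 10 mM libraries 1 to 6 and 108, 102, 106, 80.3 and 86.8 FPKM in 16 mM libraries 1 to 5. At 10 mM all 6 libraries were above all controls in FPKM, and 16 mM libraries 4 and 5 overlapped control 4 to 6. It rose by 1.63 ± 0.36 (adjusted p = 0.00491) at 10 mM, while at 16 mM 0.79 ± 0.37 (adjusted p = 0.106) did not pass over all libraries. SQLE, the squalene epoxidase, showed 39.0, 28.6 and 29.3 FPKM in the first 3 control libraries and 74.0, 79.6 and 63.9 FPKM in the other 3. SQLE measured 33.5, 91.8, 89.6, 88.7, 102 and 101 FPKM in 10 mM libraries 1 to 6 and 97.0, 93.3, 94.9, 77.3 and 79.5 FPKM in 16 mM libraries 1 to 5. The 16 mM libraries overlapped both control 4 to 6 and 10 mM libraries 2 to 6, and 10 mM library 1 lay within control 1 to 3. SQLE rose at 16 mM by 0.74 ± 0.27 (adjusted p = 0.0416) and at 10 mM by 0.83 ± 0.24 (adjusted p = 0.0094) without library 1, where over all libraries 0.72 ± 0.26 (adjusted p = 0.0586) did not pass. LSS, which closes the sterol rings to make lanosterol, spanned 16.5 to 24.1 FPKM in the first 3 control libraries and 40.5 to 49.1 FPKM in the other 3. LSS measured 51.9 to 64.8 FPKM in 10 mM libraries 2 to 6, 17.4 FPKM in 10 mM library 1 and 20.7 to 33.3 FPKM at 16 mM. It was lower at 16 mM than at 10 mM, with a log2 change of -0.95 ± 0.30 (adjusted p = 0.0431), and its change at 16 mM was 0.64 ± 0.15 (adjusted p = 0.00184) against control 1 to 3 and -0.69 ± 0.12 (adjusted p = 0.000172) against control 4 to 6.

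From lanosterol to cholesterol, 5 of 8 members rose (background 17.3%) and 1 fell (background 18.1%) at 16 mM over all libraries. At 10 mM 7 of 8 rose (background 9.41%). CYP51A1, the demethylase that acts first on lanosterol (chromosome 7, 92112153 to 92179511), showed 50.7, 39.3 and 37.6 FPKM in the first 3 control libraries and 57.6, 57.3 and 54.4 FPKM in the other 3. CYP51A1 measured 59.9, 80.9, 80.1, 83.3, 90.0 and 92.9 FPKM in 10 mM libraries 1 to 6 and 81.4, 84.3, 82.3, 78.1 and 77.1 FPKM in 16 mM libraries 1 to 5. In FPKM the exposed libraries were all above all controls, which for 10 mM library 1 holds for that measure alone. It rose by 0.71 ± 0.14 (adjusted p = 0.00106) at 16 mM and 0.85 ± 0.14 (adjusted p = 0.000529) at 10 mM. MSMO1, a methylsterol oxidase that acts after CYP51A1 and the reductase step, showed 37.2, 28.9 and 28.4 FPKM in the first 3 control libraries and 93.9, 92.5 and 73.0 FPKM in the other 3. MSMO1 measured 103, 208, 205, 199, 178 and 198 FPKM in 10 mM libraries 1 to 6 and 166, 159, 158, 132 and 130.3 FPKM in 16 mM libraries 1 to 5. In FPKM all exposed libraries were above all controls, and the log2 change was 1.32 ± 0.30 (adjusted p = 0.00245) at 16 mM and 1.71 ± 0.29 (adjusted p = 0.000742) at 10 mM.

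NSDHL, the dehydrogenase that follows MSMO1 (chromosome X, 152831001 to 152869729), showed 17.0, 12.6 and 11.9 FPKM in the first 3 control libraries and 31.2, 33.5 and 27.0 FPKM in the other 3. NSDHL measured 68.8, 49.6, 49.8, 48.6, 60.0 and 62.4 FPKM in 10 mM libraries 1 to 6 and 47.2, 45.95, 51.6, 54.0 and 49.1 FPKM in 16 mM libraries 1 to 5. In FPKM it was above all controls at both doses. The log2 change of NSDHL was 1.21 ± 0.32 (adjusted p = 0.0074) at 16 mM and 1.61 ± 0.31 (adjusted p = 0.00197) at 10 mM. HSD17B7, the ketosteroid reductase of the same demethylation cycle, showed 23.9, 19.9 and 18.9 FPKM in the first 3 control libraries and 25.6, 28.6 and 25.5 FPKM in the other 3. HSD17B7 measured 34.7, 42.2, 39.3, 40.2, 40.2 and 41.1 FPKM in 10 mM libraries 1 to 6 and 36.7, 34.0, 37.7, 25.8 and 26.8 FPKM in 16 mM libraries 1 to 5. The 10 mM libraries did not overlap control in FPKM, whereas 16 mM libraries 4 and 5 lay within the range of control 4 to 6. HSD17B7 rose by 0.46 ± 0.17 (adjusted p = 0.0451) at 16 mM and 0.93 ± 0.16 (adjusted p = 0.000947) at 10 mM.

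SC5D, the desaturase near the end of the pathway (chromosome 11, 121292771 to 121360969), showed 11.9, 10.3 and 10.9 FPKM in the first 3 control libraries and 14.2, 14.1 and 13.4 FPKM in the other 3. SC5D measured 11.4, 16.9, 15.8, 16.3, 15.0 and 16.6 FPKM in 10 mM libraries 1 to 6 and 16.6, 17.8, 17.1, 21.6 and 21.0 FPKM in 16 mM libraries 1 to 5. It is the member with the highest ratio of 16 mM to 10 mM mean FPKM, 1.17 without library 1, and its highest levels were those of 16 mM libraries 4 and 5. Library 1 at 10 mM lay within control 1 to 3. SC5D rose by 0.61 ± 0.14 (adjusted p = 0.00287) at 16 mM and by 0.43 ± 0.14 (adjusted p = 0.0353) at 10 mM, although 16 mM over 10 mM, 0.26 ± 0.12 (adjusted p = 0.0931) without library 1, did not pass. EBP, the sterol isomerase, spanned 72.4 to 95.0 FPKM in the first 3 control libraries and 122 to 142 FPKM in the other 3. EBP measured 146 to 161 FPKM in 10 mM libraries 2 to 6, 377 FPKM in 10 mM library 1 and 104 to 122 FPKM at 16 mM. EBP rose at 10 mM by 1.19 ± 0.38 (adjusted p = 0.0367) and at 16 mM had a log2 change of 0.07 ± 0.39 (adjusted p = 0.909). DHCR7, the reductase of the last step of one route to cholesterol, spanned 37.1 to 56.9 FPKM in the first 3 control libraries and 71.2 to 79.4 FPKM in the other 3. DHCR7 measured 93.9 to 102 FPKM in 10 mM libraries 2 to 6, 90.1 FPKM in 10 mM library 1 and 48.6 to 78.0 FPKM at 16 mM. It rose at 10 mM by 0.84 ± 0.23 (adjusted p = 0.0166), and at 16 mM 0.13 ± 0.24 (adjusted p = 0.706) did not pass.

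TM7SF2 went the other way from the enzymes around it. It encodes a sterol reductase acting between CYP51A1 and MSMO1, a step that the lamin B receptor LBR can also carry out (chromosome 11, 65111872 to 65116230), and it showed 47.9, 42.4 and 43.7 FPKM in the first 3 control libraries and 45.7, 47.7 and 48.0 FPKM in the other 3. TM7SF2 measured 49.3, 51.2, 49.5, 43.6, 47.7 and 44.7 FPKM in 10 mM libraries 1 to 6 and 27.9, 26.7, 25.5, 17.2 and 16.9 FPKM in 16 mM libraries 1 to 5. In FPKM all 5 libraries at 16 mM were below all 12 others, and within 16 mM libraries 4 and 5 were the lowest. Control 1 to 3, control 4 to 6 and 10 mM overlapped in FPKM, although after scaling control 4 to 6 lay above control 1 to 3. TM7SF2 fell at 16 mM, with a log2 change of -1.01 ± 0.19 (adjusted p = 0.000508), -0.91 ± 0.13 (adjusted p = 2.68e-05) against control 1 to 3 and -1.08 ± 0.12 (adjusted p = 3.74e-06) against control 4 to 6 without 10 mM library 1, and -1.04 ± 0.16 (adjusted p = 0.00251) with close libraries summed and 10 mM library 1 left out. With close libraries summed and that library kept, -1.05 ± 0.36 (adjusted p = 0.209) did not pass. At 10 mM its change of 0.26 ± 0.17 (adjusted p = 0.303) did not pass. It was lower at 16 mM than at 10 mM, with a log2 change of -1.27 ± 0.19 (adjusted p = 0.000786), which did not pass with close libraries summed, at -1.09 ± 0.18 (adjusted p = 0.0855) without 10 mM library 1 and -1.50 ± 0.37 (adjusted p = 0.595) with it.

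**Figure D3:**
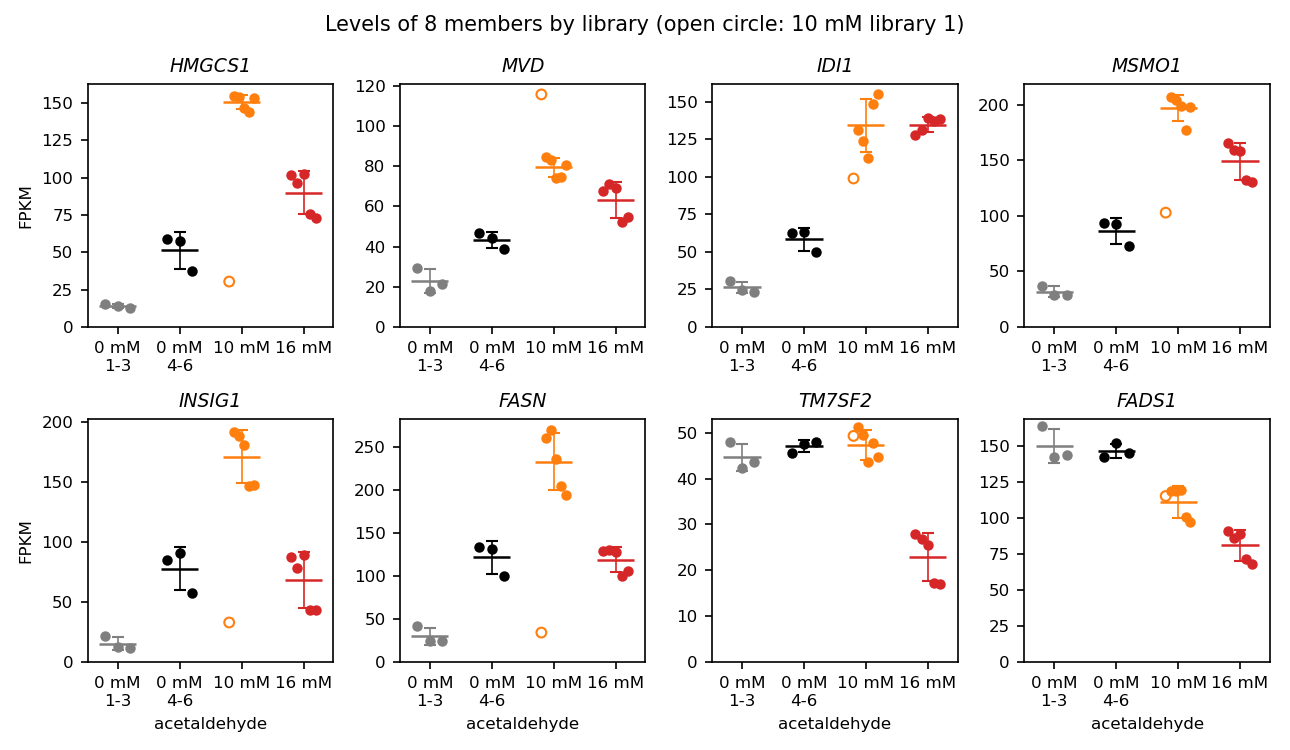
FPKM of 8 members in each library, by acetaldehyde dose, with control libraries 1 to 3 (grey) and 4 to 6 (black) apart, 10 mM in orange and 16 mM in red; lines are means and bars SD over the filled points, and the open circle is 10 mM library 1, left out of them. The upper row (HMGCS1, MVD, IDI1, MSMO1) is above both control sets at 16 mM, INSIG1 and FASN at 16 mM reach only the level of control 4 to 6, and TM7SF2 and FADS1 are lowest at 16 mM.

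Of the 5 genes of regulation and transport, SREBF1 fell at 16 mM (background 18.1%) and INSIG1 rose at 10 mM (background 9.41%) over all libraries. SREBF1, which encodes the factor with the stronger hold on fatty acid genes, showed 24.9, 18.7 and 17.9 FPKM in the first 3 control libraries and 32.3, 34.8 and 31.0 FPKM in the other 3. SREBF1 measured 10.4, 35.5, 35.3, 32.9, 26.4 and 26.1 FPKM in 10 mM libraries 1 to 6 and 22.8, 21.6, 20.6, 11.5 and 12.7 FPKM in 16 mM libraries 1 to 5. The 16 mM libraries overlapped control 1 to 3 and were below control 4 to 6, and the log2 change at 16 mM was -0.65 ± 0.24 (adjusted p = 0.0465) over all libraries and -0.20 ± 0.20 (adjusted p = 0.379) against control 1 to 3 alone, which did not pass. SREBF2, which encodes the factor with the stronger hold on sterol genes, showed 66.6, 61.8 and 62.8 FPKM in the first 3 control libraries and 79.7, 84.1 and 81.5 FPKM in the other 3. SREBF2 measured 23.7, 81.9, 83.4, 81.4, 66.8 and 66.5 FPKM in 10 mM libraries 1 to 6 and 66.7, 65.8, 63.9, 54.2 and 53.6 FPKM in 16 mM libraries 1 to 5. Its 16 mM libraries 1 to 3 and 10 mM libraries 2 to 6 overlapped control, while 16 mM libraries 4 and 5 and 10 mM library 1 were below every control. Its changes of -0.26 ± 0.15 (adjusted p = 0.212) at 16 mM and -0.05 ± 0.15 (adjusted p = 0.839) at 10 mM did not pass over all libraries. Without 10 mM library 1, SREBF2 at 16 mM was called lower than control 4 to 6 and not called against control 1 to 3. At 10 mM it was called higher than control 1 to 3 and not called against control 4 to 6. SCAP, the escort protein, spanned 31.0 to 36.0 FPKM in the first 3 control libraries and 29.2 to 30.4 FPKM in the other 3. SCAP measured 30.9 to 34.6 FPKM in 10 mM libraries 2 to 6, 16.3 FPKM in 10 mM library 1 and 25.9 to 32.5 FPKM at 16 mM. SCAP did not pass at either dose against control, with -0.09 ± 0.08 (adjusted p = 0.39) at 16 mM.

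INSIG1, whose promoter is printed above (chromosome 7, 155297878 to 155324994), showed 21.5, 12.2 and 11.5 FPKM in the first 3 control libraries and 85.0, 90.4 and 56.9 FPKM in the other 3. INSIG1 measured 32.7, 191, 189, 181, 147 and 147 FPKM in 10 mM libraries 1 to 6 and 87.7, 78.3, 89.2, 42.8 and 43.4 FPKM in 16 mM libraries 1 to 5. Libraries 2 to 6 at 10 mM were above all controls, while 16 mM libraries 1 to 3 were at the level of control 4 to 6 and 16 mM libraries 4 and 5 below it, yet above control 1 to 3. At 10 mM INSIG1 rose by 1.67 ± 0.49 (adjusted p = 0.0261). At 16 mM the change of 0.52 ± 0.50 (adjusted p = 0.463) did not pass over all libraries, and without 10 mM library 1 it was 2.23 ± 0.27 (adjusted p = 9e-06) against control 1 to 3 and -0.23 ± 0.22 (adjusted p = 0.379) against control 4 to 6. The mean level at 16 mM was 0.400 of that in 10 mM libraries 2 to 6, the lowest such ratio among the members, and the log2 difference without library 1 was -1.31 ± 0.49 (adjusted p = 0.0366).

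STARD4, a carrier of cholesterol between membranes, showed 31.9, 30.6 and 28.8 FPKM in the first 3 control libraries and 43.9, 45.1 and 39.3 FPKM in the other 3. STARD4 measured 16.5, 58.7, 58.2, 62.8, 43.5 and 48.5 FPKM in 10 mM libraries 1 to 6 and 46.9, 47.3, 47.1, 36.2 and 36.0 FPKM in 16 mM libraries 1 to 5. Libraries 1 to 3 at 16 mM were above control 4 to 6 and libraries 4 and 5 below it, all of them above control 1 to 3, and 10 mM libraries 2 to 6 overlapped control 4 to 6. Its changes over all libraries, 0.29 ± 0.20 (adjusted p = 0.283) at 16 mM and 0.47 ± 0.19 (adjusted p = 0.0896) at 10 mM, did not pass, while without 10 mM library 1 they were 0.30 ± 0.12 (adjusted p = 0.0428) and 0.62 ± 0.12 (adjusted p = 0.000655).

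Among the fatty acid genes, at 16 mM 1 of 7 rose (background 17.3%) and 2 fell (background 18.1%) over all libraries. At 10 mM 2 of 7 rose (background 9.41%). ACLY, the citrate lyase that supplies acetyl-CoA to both pathways (chromosome 17, 41865555 to 41930634), showed 74.0, 59.9 and 59.3 FPKM in the first 3 control libraries and 105, 106 and 95.4 FPKM in the other 3. ACLY measured 50.2, 152, 149, 143, 163 and 155 FPKM in 10 mM libraries 1 to 6 and 127, 122, 126, 115 and 115 FPKM in 16 mM libraries 1 to 5. Apart from 10 mM library 1, every exposed library was above every control. ACLY rose by 0.54 ± 0.19 (adjusted p = 0.0374) at 16 mM and 0.76 ± 0.18 (adjusted p = 0.00874) at 10 mM. FASN, the fatty acid synthase (chromosome 17, 82078338 to 82098303), showed 40.9, 23.7 and 23.7 FPKM in the first 3 control libraries and 133, 131 and 99.5 FPKM in the other 3. FASN measured 33.8, 259.8, 269, 235, 205 and 193 FPKM in 10 mM libraries 1 to 6 and 129, 130.2, 127, 99.8 and 106 FPKM in 16 mM libraries 1 to 5. The 16 mM libraries lay in the range of control 4 to 6, and FASN rose at 10 mM by 1.39 ± 0.45 (adjusted p = 0.0397), while at 16 mM 0.62 ± 0.46 (adjusted p = 0.319) did not pass and without 10 mM library 1 it was 2.07 ± 0.19 (adjusted p = 5.66e-07) against control 1 to 3 and -0.07 ± 0.12 (adjusted p = 0.622) against control 4 to 6.

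ACACA, acetyl-CoA carboxylase, which makes the malonyl units of fatty acids, showed 17.97, 16.1 and 15.2 FPKM in the first 3 control libraries and 23.4, 24.0 and 22.3 FPKM in the other 3. ACACA measured 6.44, 25.7, 24.6, 25.3, 22.8 and 20.9 FPKM in 10 mM libraries 1 to 6 and 17.2, 15.7, 17.9, 12.8 and 13.2 FPKM in 16 mM libraries 1 to 5. The 16 mM libraries overlapped control 1 to 3 and were below control 4 to 6. It did not pass at 16 mM over all libraries, at -0.37 ± 0.19 (adjusted p = 0.14), and without 10 mM library 1 it fell, at -0.36 ± 0.13 (adjusted p = 0.0223). ELOVL6, which lengthens palmitate, spanned 11.6 to 14.8 FPKM in the first 3 control libraries and 19.9 to 24.2 FPKM in the other 3. ELOVL6 measured 18.7 to 20.7 FPKM in 10 mM libraries 2 to 6, 12.9 FPKM in 10 mM library 1 and 13.9 to 16.1 FPKM at 16 mM. At 16 mM ELOVL6 changed by 0.28 ± 0.08 (adjusted p = 0.00923) against control 1 to 3 and -0.64 ± 0.07 (adjusted p = 3.91e-06) against control 4 to 6. SCD, which puts the first double bond into stearate, spanned 139 to 235 FPKM in the first 3 control libraries and 268 to 297 FPKM in the other 3. SCD measured 282 to 344 FPKM in 10 mM libraries 2 to 6, 231 FPKM in 10 mM library 1 and 176 to 232 FPKM at 16 mM. It did not pass over all libraries at 16 mM, -0.14 ± 0.22 (adjusted p = 0.658), or at 10 mM, 0.54 ± 0.21 (adjusted p = 0.082).

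FADS1 and FADS2 encode the desaturases of polyunsaturated fatty acids and lie side by side on chromosome 11, at 61799627 to 61820899 and 61816203 to 61867957 in the table's coordinates. These ranges overlap, and no source used here states strandedness, so reads in the overlap cannot be told apart. FADS1 showed 163, 142 and 144 FPKM in the first 3 control libraries and 142, 152 and 145 FPKM in the other 3. FADS1 measured 115, 119, 119, 119, 101 and 97.0 FPKM in 10 mM libraries 1 to 6 and 90.7, 85.9, 89.0, 71.2 and 67.7 FPKM in 16 mM libraries 1 to 5. Both doses were below all controls, and 16 mM was below 10 mM in every library. FADS1 fell at 16 mM, -0.86 ± 0.17 (adjusted p = 0.000906) over all libraries, -0.82 ± 0.09 (adjusted p = 2.46e-06) against control 1 to 3 and -0.89 ± 0.08 (adjusted p = 3.94e-07) against control 4 to 6 without 10 mM library 1. At 10 mM -0.21 ± 0.16 (adjusted p = 0.355) did not pass over all libraries and -0.42 ± 0.07 (adjusted p = 0.000204) did without library 1. FADS2 showed 224, 159 and 162 FPKM in the first 3 control libraries and 326, 337 and 297 FPKM in the other 3. FADS2 measured 196, 273, 286, 268, 259.9 and 247 FPKM in 10 mM libraries 1 to 6 and 178, 178, 169, 154 and 160.1 FPKM in 16 mM libraries 1 to 5. Its 16 mM libraries overlapped control 1 to 3 and were below control 4 to 6. FADS2 fell at 16 mM, with a log2 change of -0.59 ± 0.21 (adjusted p = 0.0389) over all libraries, but against control 1 to 3 alone the change of -0.05 ± 0.10 (adjusted p = 0.669) did not pass.

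Within 16 mM, libraries 4 and 5 were both lower after scaling than libraries 1 to 3 for 22 of 30 members (background 35.1%) and both higher for 4 (background 38.7%). The 4 were IDI1, CYP51A1, NSDHL and SC5D. FPKM lack this scaling, and in FPKM only SC5D was higher in both. There IDI1 and NSDHL overlapped and CYP51A1 was lower in libraries 4 and 5 (ratio of means 0.939). The ratio of mean FPKM, libraries 4 and 5 over libraries 1 to 3, had a median of 0.797 and ran from 0.507 for INSIG1 to 1.24 for SC5D.

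The departure of 10 mM library 1 followed transcript length. Of the 30 members, 10 had more FPKM in library 1 than the mean of 10 mM libraries 2 to 6, with a median effective length of 1321 bases, and 20 did not, with a median of 3898 bases. The highest ratios were 2.48 for EBP, 2.43 for FDPS, 2.23 for PMVK and 2.22 for ACAT2, and the lowest were 0.146 for FASN, 0.191 for INSIG1 and 0.202 for HMGCS1. Spearman's rho between length and ratio was -0.766 across the 30 members and -0.611 across 12564 genes, which share this 1 library and are not independent. With this library the 10 mM change of FDPS was 1.06 ± 0.37 and without it 0.38 ± 0.15, and that of HMGCS1 2.04 ± 0.41 and 2.20 ± 0.37.

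**Figure D4:**
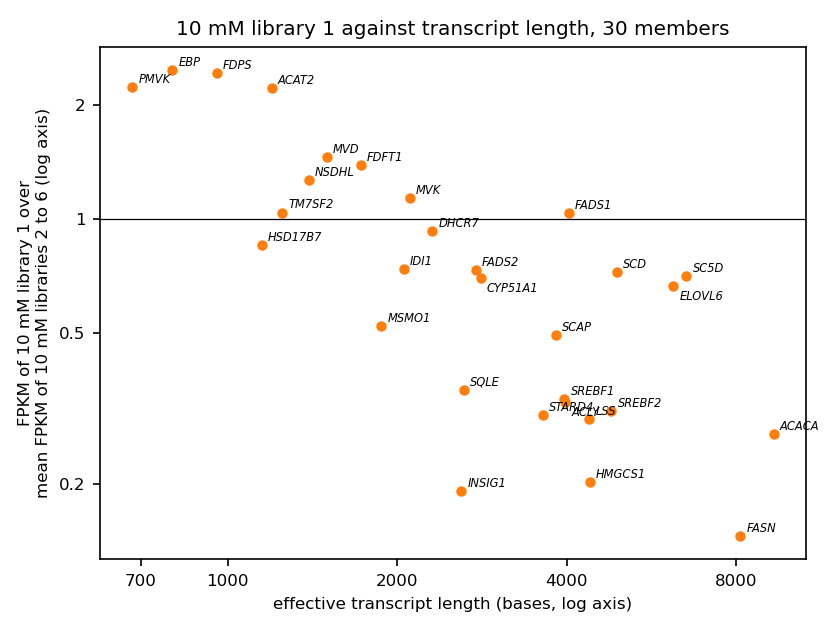
Each point is a member, with its effective transcript length on a log axis and, on a log axis, its FPKM in 10 mM library 1 over its mean FPKM in 10 mM libraries 2 to 6. Short transcripts such as EBP (2.48) and FDPS (2.43) lie above 1 and long ones such as FASN (0.146) and ACACA (0.270) below it.

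Further genes of the same biology were listed by function. Counts over these lists stand against 17.3% of all genes higher and 18.1% lower at 16 mM, and 9.41% higher and 9.3% lower at 10 mM, over all libraries. These shares without 10 mM library 1 were 33.7% and 32.2% at 16 mM and 22.4% and 22.8% at 10 mM. Of 11 genes that process or restrain the sterol regulatory proteins, 2 rose and 2 fell at 16 mM and 1 rose at 10 mM over all libraries, against 5 and 3 at 16 mM and 3 and 1 at 10 mM without 10 mM library 1. PAQR3, a Golgi anchor of SCAP, rose and ERLIN1, a sterol-binding protein of the endoplasmic reticulum, fell, with log2 changes of 0.48 ± 0.13 (edgeR adjusted p = 0.00774) and -0.34 ± 0.09 (edgeR adjusted p = 0.00617). Of 8 tested further sterol enzymes and partners, 1 passed at 16 mM, PGRMC1 at 0.58 ± 0.22 (edgeR adjusted p = 0.0471), and 1 passed at 10 mM, ERG28, a scaffold of the demethylation complex, at 0.98 ± 0.26 (edgeR adjusted p = 0.0146). With 10 mM library 1 left out, 2 rose and 2 fell at each dose.

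Of 12 genes of sterol uptake, transport and esterification, 5 rose and 1 fell at 16 mM (background 17.3% and 18.1%) and 5 rose at 10 mM (background 9.41%). Without 10 mM library 1, 7 rose and 2 fell at 16 mM and 6 rose and 1 fell at 10 mM. GRAMD1B, which carries cholesterol from the plasma membrane inward, averaged 17.4 ± 1.499 FPKM at 16 mM (SD, n = 5), against 4.76 ± 0.562 FPKM in control (SD, n = 6), a log2 change of 1.94 ± 0.24 (edgeR adjusted p = 9.62e-06). NPC1, which exports cholesterol from lysosomes, and STARD3, a sterol carrier of late endosomes, rose at 16 mM by 0.59 ± 0.10 (edgeR adjusted p = 0.000186) and 0.40 ± 0.07 (edgeR adjusted p = 0.000516). At 10 mM LRP8, a lipoprotein receptor, rose by 1.07 ± 0.28 (edgeR adjusted p = 0.0143). Of 9 tested genes of sterol efflux and targets of the liver X receptors, which sense oxidised sterols, 3 rose and 2 fell at 16 mM and 2 rose at 10 mM, and without 10 mM library 1, 4 rose and 3 fell at 16 mM and 4 rose at 10 mM. APOE stood low, at 1.55 ± 0.350 FPKM at 16 mM and 0.237 ± 0.129 FPKM in control, with a log2 change of 2.71 ± 0.38 (edgeR adjusted p = 4.16e-05). NCEH1, a cholesteryl ester hydrolase, rose by 1.06 ± 0.16 (edgeR adjusted p = 8.62e-05), and NR1H3, a liver X receptor, fell with a log2 change of -0.54 ± 0.13 (edgeR adjusted p = 0.00277).

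Of 15 tested further genes of fatty acid synthesis and elongation, 3 fell and 12 did not pass at 16 mM (background 18.1% lower), and 1 rose and 3 fell at 10 mM. Once 10 mM library 1 was left out, 4 rose, 8 fell and 3 did not pass at 16 mM, and 2 rose and 3 fell at 10 mM. The 3 lower at 16 mM were FADS3, ME1, the malic enzyme that supplies reducing power, and MID1IP1, a partner of acetyl-CoA carboxylase. FADS3, which lies in the same gene family as FADS1, averaged 25.5 ± 4.00 FPKM at 16 mM and 63.3 ± 6.82 FPKM in control, with a log2 change of -1.31 ± 0.15 (edgeR adjusted p = 4.13e-06). At 10 mM the rise was that of ACSS2, which makes acetyl-CoA from acetate, at 1.03 ± 0.16 (edgeR adjusted p = 0.000282).

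In the authors' deposited table, at a q under 0.05, 10 members were higher (background 25% of the genes with a q) and 6 lower (background 25.4%) at 16 mM than in control. At 10 mM, 16 members were higher (background 7.74%) and 0 lower (background 7.68%) than in control in the authors' deposited table. Between the doses, 0 members were higher (background 4.29%) and 12 lower (background 5.23%) at 16 mM than at 10 mM in the authors' deposited table.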

How the data were processed

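Poly-A RNA of 17 BEAS-2B libraries (6 control, 6 at 10 mM, 5 at 16 mM acetaldehyde) was sequenced. Per the submitters' processing notes the genome was GRCh38.p13 and the tools included RSEM 1.3.1, HISAT, DESeq2 1.4.5 and Bowtie2 2.3.4.3. The authors deposited expected counts per gene, of which 13.1% are not whole and which were rounded here, and FPKM and TPM values per library. The authors' deposited comparisons give log2 fold changes with p-values and q-values.

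Counts of all genes were fitted in 1 model with edgeR 4.0.16 (TMM scaling, filterByExpr, quasi-likelihood test) in R 4.3.3, with Benjamini-Hochberg adjustment over all genes tested and a threshold of 0.05. Each SE was derived from the F statistic, as log2 change over root F. Unless another fit is named, log2 changes come from all 17 libraries, are given ± SE, and each adjusted p beside one is edgeR's. The steps were tested on simulated data. DESeq2 1.42.0 and limma 3.58.1 gave alternatives, and fits on 1 control set, on summed close libraries and without 10 mM library 1 were among them.

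Values in every library are given for the 20 members with the smallest adjusted p at 16 mM without 10 mM library 1, and for INSIG1, added after its values were seen. Other lists name up to 3 called genes a dose with the smallest adjusted p, and 1 such gene is not reported here. Members and lists were chosen with earlier results of these data known.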

Additional observations from a re-analysis of the deposited data

Results flagged for a closer look

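In 19 of 90 combinations of member and dose group, 1 library stood apart from the rest of its group by Dixon's criterion, which chance meets in about 1 of 20 groups. All 19 were 10 mM library 1. It was the high library for 6 members, with 471 FPKM for ACAT2, 50.2 for PMVK, 116 for MVD, 752 for FDPS, 191 for FDFT1 and 377 for EBP. It was the low library for 13 members, with 30.3 FPKM for HMGCS1, 33.5 for SQLE, 17.4 for LSS, 103 for MSMO1, 11.4 for SC5D, 10.4 for SREBF1, 23.7 for SREBF2 and 16.3 for SCAP. The other low values were 32.7 FPKM for INSIG1, 50.2 for ACLY, 6.44 for ACACA, 33.8 for FASN and 12.9 for ELOVL6. The values of this library moved with transcript length, as given above, and the part of length in them was not tested.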

How the results depend on the processing

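Counts of members called depended on the control set and on 10 mM library 1, and the cause was not tested. Shares of all genes are given above for some of these fits and were not taken for the rest. The counts below therefore show only how calls on the members varied between fits, not whether they exceed those of all genes. At 16 mM over control, higher calls were 0 with close libraries summed, 21 against control 1 to 3 without 10 mM library 1, and 3 against control 4 to 6 with it. Lower calls there were 0 with close libraries summed, 2 with them summed without 10 mM library 1, 2 against control 1 to 3, 9 against control 4 to 6, 13 against control 4 to 6 without 10 mM library 1, and 9 with voom. At 10 mM over control, higher calls were 0 with close libraries summed, 8 with them summed without library 1, 26 against control 1 to 3 without library 1, and 7 against control 4 to 6. Lower calls were 1 against control 1 to 3 and 3 against control 4 to 6, both without library 1, 1 with limma on FPKM at either pseudocount, and 2 with voom. At 16 mM over 10 mM, 1 member was higher without library 1 with either control set. Lower calls were 12 with DESeq2, 0 with close libraries summed with or without library 1, 10 and 11 with control 1 to 3 and control 4 to 6, 24 with either set without library 1, 2 with limma on FPKM, 7 with only the 2 groups fitted, and 19 with voom. Same-numbered libraries of different groups correlated at -0.390 to 0.414 in their deviations over 16 pairs, 12 of them over 0.1 and 3 of them above every pairing with another number. Since not every pair was over 0.1 and the labels tie no number to a shared source, the numbers were not taken as pairs. With the replicate number as a block, calls were 9 higher and 2 lower at 16 mM, 12 higher and 0 lower at 10 mM, and 0 higher and 2 lower between doses. With the block and without library 1, 1 was lower at 10 mM, and 1 was higher and 8 lower between doses. Leaving out 1 library at a time gave 6 to 12 higher and 2 to 7 lower at 16 mM, 10 to 19 higher and 0 to 1 lower at 10 mM, and 0 to 0 higher and 1 to 15 lower between doses.

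Some changes that were not called over all libraries were called in the opposite direction in another fit. Against control 4 to 6 without library 1 these were ACAT2 (-0.34), MVK (-0.25) and EBP (-0.26) at 16 mM. At 10 mM they were ELOVL6 (-0.28) and FADS2 (-0.31). Against control 1 to 3 without library 1 they were FDPS (0.33), LSS (0.64) and ELOVL6 (0.28) at 16 mM and SREBF2 (0.31) at 10 mM. The same held for LSS at 16 mM against control 1 to 3 with library 1 kept (0.63), and for PMVK at 10 mM with voom (-0.36). All are log2 changes.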

Other observations

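Of 15 tested genes that activate fatty acids and build glycerolipids, 8 rose and 2 fell at 16 mM and 5 rose at 10 mM, where 17.3% of all genes rose and 18.1% fell at 16 mM and 9.41% rose and 9.3% fell at 10 mM. Without 10 mM library 1, 9 rose and 2 fell at 16 mM and 10 rose at 10 mM, where 33.7% of all genes rose and 32.2% fell at 16 mM and 22.4% rose and 22.8% fell at 10 mM. The same shares hold beside the lists that follow, and no difference from all genes was tested. GPAT3, which starts glycerolipid synthesis, averaged 4.33 ± 0.493 FPKM at 16 mM (SD, n = 5), against 1.34 ± 0.327 FPKM in control (SD, n = 6), with a log2 change of 1.71 ± 0.26 (edgeR adjusted p = 9.63e-05). CHKA, choline kinase, rose by 1.02 ± 0.16 (edgeR adjusted p = 0.000149) and GPAT4 by 0.55 ± 0.09 (edgeR adjusted p = 0.000106) at 16 mM, and PCYT2, of phosphatidylethanolamine synthesis, by 0.91 ± 0.21 (edgeR adjusted p = 0.00662) at 10 mM.

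Of 10 genes of the isoprenoid branch, 2 rose and 4 fell at 16 mM and 3 rose and 1 fell at 10 mM. Without 10 mM library 1, 3 rose and 4 fell at each dose. DOLK, dolichol kinase, rose by 0.90 ± 0.13 (edgeR adjusted p = 6.47e-05) at 16 mM, while COQ2 and PDSS2, both of coenzyme Q synthesis, fell with log2 changes of -1.08 ± 0.21 (edgeR adjusted p = 0.000733) and -0.66 ± 0.11 (edgeR adjusted p = 0.000205). At 10 mM PGGT1B, a prenyltransferase subunit, rose by 0.38 ± 0.10 (edgeR adjusted p = 0.0151). Of 14 genes of fatty acid oxidation, 2 fell at 16 mM and 12 did not pass over all libraries, whereas without 10 mM library 1, 6 fell at 16 mM and 4 at 10 mM. The 2 were ACADVL at -0.53 ± 0.10 (edgeR adjusted p = 0.000876) and ACADS at -0.57 ± 0.14 (edgeR adjusted p = 0.00518). Of 9 lipid droplet genes, 1 passed at 16 mM over all libraries, whereas without 10 mM library 1, 4 rose and 2 fell at 16 mM and 1 rose and 1 fell at 10 mM. The 1 gene was LIPE, at -1.12 ± 0.24 (edgeR adjusted p = 0.00138), with levels of 0.658 ± 0.253 FPKM at 16 mM and 1.31 ± 0.296 FPKM in control.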
